A study of Homo sapiens with 8 samples.

Results

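Glycolysis, glucose sensing and the hypoxia response were examined as a set of 48 genes in A549 cells, a human lung adenocarcinoma line, after siRNA against NFE2L2. The genes were chosen by function and with earlier results of these data known. They run from glucose transporters through the glycolytic enzymes to the hypoxia-inducible factors (HIFs) and their targets. Of the 48, 47 had a row among the 60291 gene rows of the count files. TXNIP, which restrains glucose uptake, was not analysed here because no row carried its identifier in the annotation used. Each library came from its own transfection of 250000 cells. The NFE2L2 siRNA group held 3 libraries, each from a different duplex (duplexes 1, 2 and 3) and each a single transfection. The control siRNA group held 4 libraries, 2 repeats of each of 2 non-targeting duplexes. These 7 transfections received 5 nmol of siRNA with Lipofectamine RNAiMAX and were collected at 48 h. Beside them stands 1 mock transfection, which enters a fit only in 1 alternative, as an added control. The libraries were made from total RNA depleted of ribosomal RNA, and A549 cells carry a mutation that disables KEAP1. The p-values measure the spread between these libraries of 1 cell line. Under NFE2L2 siRNA that spread joins duplex and transfection. The controls enter the main fit as 4 separate libraries, although 2 repeats share each duplex.

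NFE2L2 encodes NRF2, the transcription factor of the oxidative stress response, and KEAP1 normally marks it for destruction. Glycolysis splits glucose into pyruvate through hexokinase, phosphofructokinase, aldolase and the enzymes that follow, and lactate dehydrogenase then turns pyruvate into lactate. HIF alpha subunits are hydroxylated by the EGLN prolyl hydroxylases when oxygen is present and destroyed, and when they persist they raise glucose transporters, most glycolytic enzymes and genes such as CA9 and VEGFA. ChREBP, encoded by MLXIPL, and its relative MondoA read glucose phosphates and drive TXNIP and ARRDC4.

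The libraries held between 35525141 and 41645410 reads on genes. NFE2L2 itself gave 1178, 2044 and 1262 reads under NFE2L2 duplexes 1, 2 and 3 against 3974 to 4227 in the control libraries, a log2 fold change of -1.55 (SE 0.179, adjusted p = 0.000994 by edgeR's quasi-likelihood test). Its targets NQO1, GCLM and TXNRD1 fell by 2.19, 2.52 and 2.57 on the log2 scale. The epithelial keratins KRT8, KRT18 and KRT7 were abundant at 34013 to 267462 reads, and EPCAM and CDH1 were read in every library. PTPRC, CD3E, VWF, COL1A2 and DCN, which define blood, endothelial and mesenchymal cells, reached at most 5 reads. Of the other markers, COL1A1 rose, with 331 to 569 reads against 143 to 169 (adjusted p = 0.000492, edgeR). CDH5 gave 18 to 39 reads against 4 to 8 and was 1.99 higher on the log2 scale (adjusted p = 0.00820, edgeR). CDH5 was tested only because NFE2L2 siRNA libraries reached the limit of 10 reads, so its p-value is no support for a rise. The part of either gene in the results was not tested. COL1A1 encodes a fibrillar collagen chain and CDH5 an endothelial cadherin. PECAM1 was not analysed here.

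Of the 47 genes measured, 2 fell past the threshold and none rose. They were SLC2A1, the basal glucose transporter GLUT1, which was 33.1% lower, and PFKP, the platelet isoform of phosphofructokinase, which was 30.6% lower. The threshold was an adjusted p under 0.01 over the 17811 genes tested, of which 2.76% passed it, 1.36% as reduced and 1.39% as increased. The share of the members past it, 2 of 47, was thus near that of all genes. At an unadjusted p under 0.05, 21 members were lower and 4 higher, where 11.7% and 13.3% of all genes were. At an adjusted p under 0.05 the counts were 10 and 2, against 3.54% and 4.63% of all genes. The member fold changes leaned towards lower values all the same, with 31 negative and 16 positive. Their median log2 fold change was -0.26 against 0.01 over all genes tested. This lean was not tested, since the members were chosen with earlier results known. In 17 members the 3 libraries of the knockdown were each lower than the lowest of the 4 controls, an arrangement found in 11.4% of all genes. In 3 members, PFKFB2, PDK4 and HIF1A, they lay above, against 11.9% of all genes, and in the remaining 27 members the groups overlapped.

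The count of members called depended on the tool and on the control libraries. DESeq2 called 10 reduced and 2 increased members at the same threshold, and 7.7% of the 17119 genes to which it gave an adjusted p. Limma-voom called 2 members, both reduced, and 2.61% of all genes. Against either control duplex on its own, edgeR called no member, where 120 and 59 of all genes were called against control duplexes 1 and 2. The median log2 fold change of the 47 members was -0.36 against control duplex 1 and -0.10 against control duplex 2. Fewer cells transcribing a gene and less RNA per cell cannot be told apart in these bulk libraries.

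**Figure D1:**
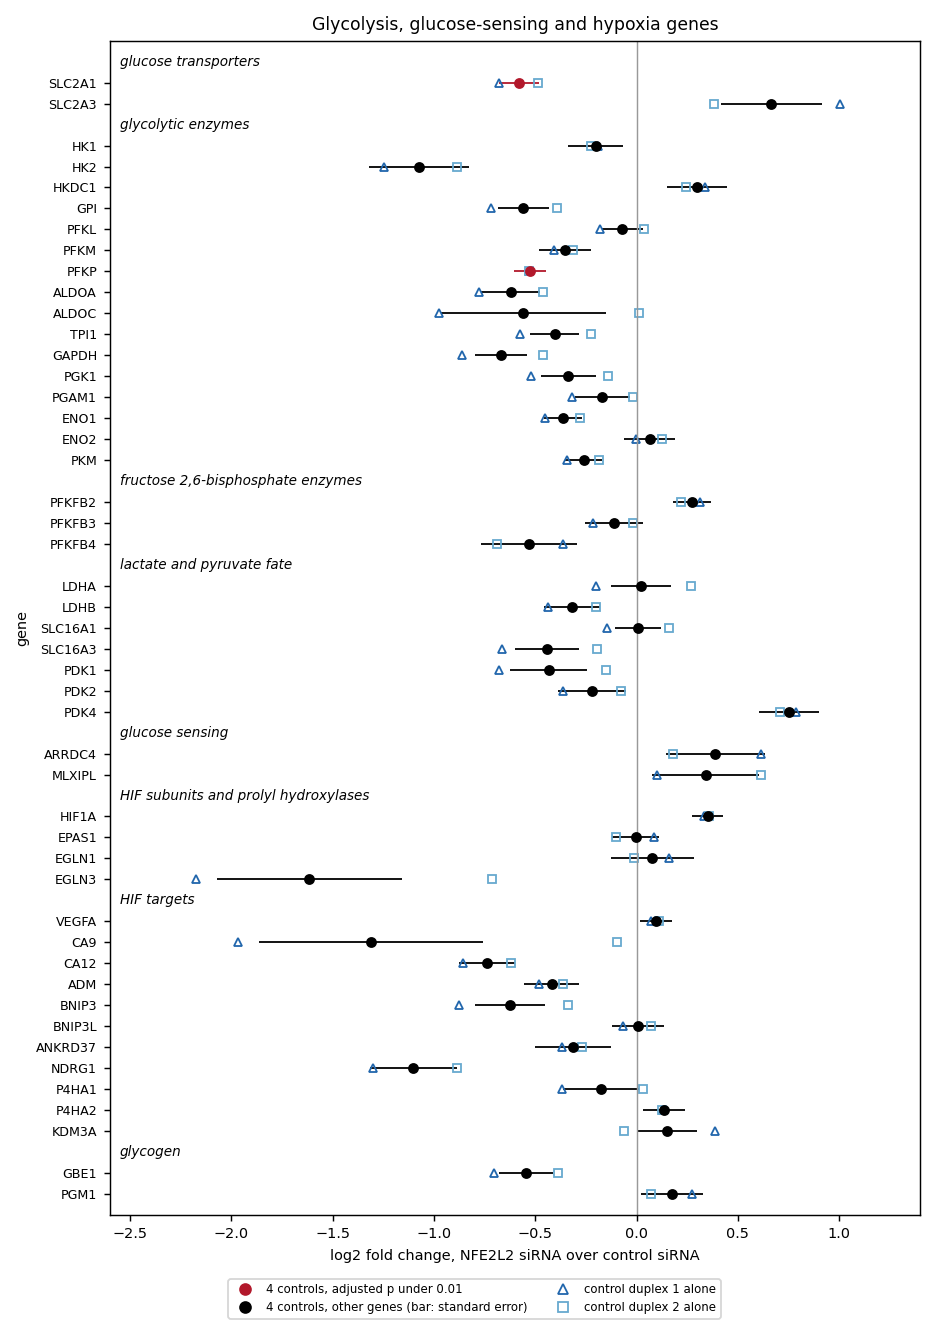
Log2 fold change of each of the 47 members under NFE2L2 siRNA (3 libraries) over control siRNA (4 libraries), with its standard error as a bar, grouped by role. Red points, SLC2A1 and PFKP, passed an adjusted p of 0.01, and the open triangles and squares give the same fold change against control duplex 1 or control duplex 2 alone, which lie far apart for EGLN3 and CA9.

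Reads are given below for NFE2L2 duplexes 1, 2 and 3 in that order, then for both repeats of control duplex 1, both repeats of control duplex 2 and the mock library. Levels are normalised CPM, read counts scaled to a common library total with TMM factors, as mean ± SD. SLC2A1 (ENSG00000117394, minus strand of chromosome 1, 43391024 to 43424564 in GRCh37) gave 3614, 4118 and 4161 reads under NFE2L2 siRNA, 6420, 5569, 5181 and 5165 in the controls and 5853 in the mock library. Every NFE2L2 duplex was below every control, and the mock library sat inside the control range. Its level was 101 ± 3.48 CPM (n = 3) under NFE2L2 siRNA and 151 ± 14.7 CPM (n = 4) in the controls. The log2 fold change was -0.58 (SE 0.0973, adjusted p = 0.00708, edgeR). The direction was the same against control duplex 1 alone (-0.68, adjusted p = 0.0338) and control duplex 2 alone (-0.49, adjusted p = 0.0824).

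PFKP (plus strand of chromosome 10, 3108525 to 3179910 in GRCh37) commits fructose 6-phosphate to glycolysis together with PFKL and PFKM. It gave 14207, 15065 and 16816 reads under NFE2L2 siRNA, 21301, 20595, 20314 and 21062 in the controls and 19154 in the mock library. Neither group spread widely, since the highest library exceeded the lowest 1.04-fold under NFE2L2 siRNA and 1.06-fold among the controls. The groups did not overlap, and the mock library, at 480 CPM, lay between them. PFKP averaged 392 ± 7.60 CPM (n = 3) against 565 ± 16.0 CPM (n = 4), a log2 fold change of -0.53 (SE 0.0786, adjusted p = 0.00398, edgeR). Against control duplex 1 or 2 alone the value stayed at -0.53, with adjusted p-values of 0.0540 and 0.0648.

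Both calls were close to the threshold, and with the repeats of each control duplex summed, which leaves 2 control values, neither held (adjusted p = 0.0858 for SLC2A1 and 0.0891 for PFKP). The call of SLC2A1 was lost without NFE2L2 duplex 1 or 3 (adjusted p = 0.0135 and 0.0280) and without any 1 of the control libraries (0.0172, 0.0299, 0.0151 and 0.0215), and held without NFE2L2 duplex 2 (0.00692). The call of PFKP held without NFE2L2 duplex 1 or 2 (0.00548 and 0.00542) and was lost without duplex 3 (0.0122) or any control library (0.0147, 0.0203, 0.0140 and 0.0219). The fold changes themselves moved little, between -0.63 and -0.51 for SLC2A1 and between -0.55 and -0.51 for PFKP.

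**Figure D2:**
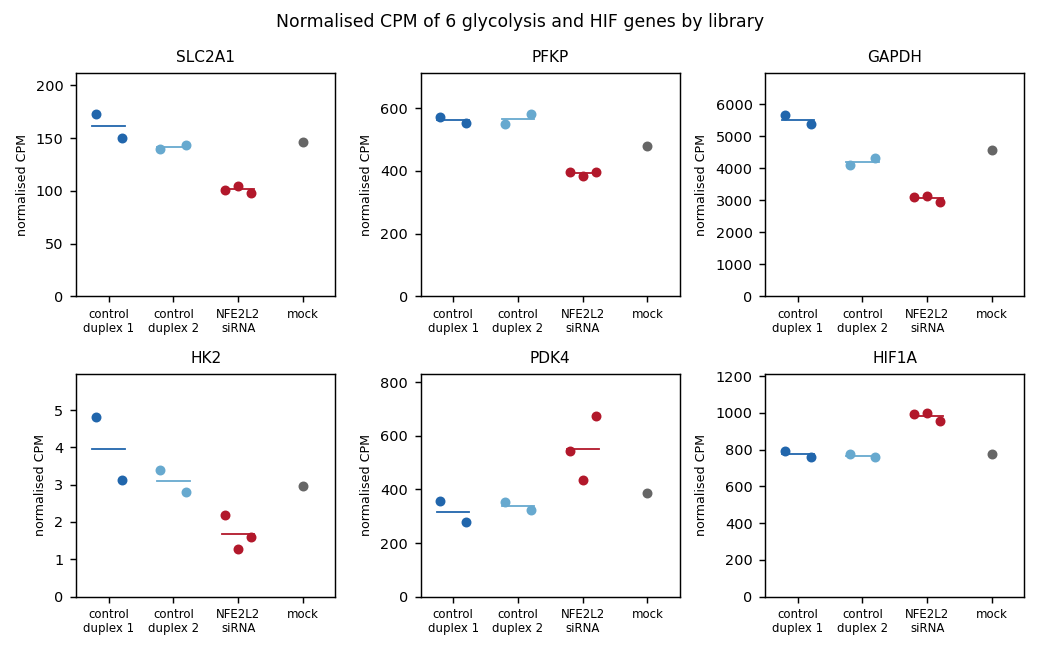
Normalised CPM of SLC2A1, PFKP, GAPDH, HK2, PDK4 and HIF1A in each library, one point a library and a line at the mean of each group with more than 1 library. With NFE2L2 siRNA, SLC2A1, PFKP, GAPDH and HK2 were below every control, and PDK4 and HIF1A above every control.

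The other glucose transporter, SLC2A3 (GLUT3, minus strand of chromosome 12, 8071826 to 8171603 in GRCh37), gave 21992, 19694 and 12754 reads under NFE2L2 siRNA, 9272, 8094, 13694 and 12810 in the controls and 9557 in the mock library. NFE2L2 duplexes 1 and 2 were above every control, but in normalised CPM duplex 3 lay between the control duplexes. The log2 fold change of 0.66 (SE 0.249, adjusted p = 0.132) did not pass the threshold. The controls differed among themselves, with control duplex 2 higher than control duplex 1 by 0.64 on the log2 scale (SE 0.0752, adjusted p = 0.000780, edgeR on the 4 control libraries). Per kilobase of exon, SLC2A3 averaged 41.1 CPM and SLC2A1 22.9 CPM in the controls, so that SLC2A1 made up 36.5 ± 7.58% (n = 4) of the pair there and 20.1 ± 5.68% (n = 3) under NFE2L2 siRNA. Those shares did not overlap, yet the exact two-sided permutation test over the 35 divisions of the libraries gave p = 0.0571 and 0.109 after adjustment over 19 isozyme shares.

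Among the 16 glycolytic enzymes, 14 had negative and 2 positive fold changes, with a median of -0.36. Below all controls without overlap lay 9 of them, where 11.4% of all genes did. Only PFKP passed the threshold with edgeR, and limma-voom also called 1, where they called 2.76% and 2.61% of all genes. DESeq2, which called 7.7% of genes, called 6, all reduced (HK2, GPI, PFKP, ALDOA, GAPDH and ENO1). Summed over the 16 genes, the enzymes took 1.28%, 1.27% and 1.24% of gene reads under NFE2L2 duplexes 1, 2 and 3. Control duplex 1 gave 1.85% and 1.74%, control duplex 2 gave 1.53% and 1.59%, and the mock library gave 1.61%. The NFE2L2 siRNA libraries were thus the lowest, with control duplex 2 and the mock library between them and control duplex 1. The median over the 16 enzymes was -0.49 against control duplex 1 and -0.22 against control duplex 2, while control duplex 2 itself differed from control duplex 1 by a median of -0.25.

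GAPDH, the dehydrogenase of the sixth step and a common reference gene in expression assays, was the most abundant member per length, at 2029 ± 323 CPM per kilobase (n = 4) in the controls. It gave 111194, 122720 and 124853 reads under NFE2L2 siRNA, 211046, 199570, 151593 and 155606 in the controls and 181898 in the mock library. All 3 NFE2L2 duplexes lay below the controls, and the mock library lay between the control duplexes. The log2 fold change was -0.67 (SE 0.129, adjusted p = 0.0129, edgeR), short of the threshold, and DESeq2 gave an adjusted p of 9.28e-05. Within the controls, duplex 2 differed from duplex 1 by -0.39 (SE 0.0837, adjusted p = 0.0180). The annotation names 64 pseudogenes after GAPDH, and they held 2643 reads in the 8 libraries together against 1258480 on the gene.

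The first steps of the pathway are given by isozyme. HK2, the inducible hexokinase, was scarce, with 78, 50 and 68 reads under NFE2L2 siRNA, 179, 116, 126 and 101 in the controls and 118 in the mock library. The groups did not overlap, and the log2 fold change was -1.07 (SE 0.246, adjusted p = 0.0278). HK1, the housekeeping form, was at -0.20 (SE 0.138, adjusted p = 0.396) and HKDC1, a hexokinase-like enzyme, at 0.30 (SE 0.148, adjusted p = 0.247), both with overlapping groups. GPI, which turns glucose 6-phosphate into fructose 6-phosphate, gave 24469 to 32930 reads against 36159 to 49946 in the controls (-0.56, SE 0.126, adjusted p = 0.0262). The liver and muscle phosphofructokinases did not pass the threshold. PFKL was at -0.07 (SE 0.103, adjusted p = 0.718), with overlap. PFKM was at -0.35 (SE 0.130, adjusted p = 0.125) and, like PFKP, below all controls.

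In the steps after phosphofructokinase, ALDOA, the main aldolase, gave 31184, 31654 and 26165 reads against 52082, 44782, 38791 and 38025 in the controls and 41125 in the mock library. No NFE2L2 duplex reached a control, and the log2 fold change was -0.62 (SE 0.147, adjusted p = 0.0311). ENO1 was at -0.36 (SE 0.0946, adjusted p = 0.0455), TPI1 at -0.40 (SE 0.122, adjusted p = 0.0731) and PKM, pyruvate kinase, at -0.26 (SE 0.0922, adjusted p = 0.114), all 3 without overlap. PGK1 (-0.34) and PGAM1 (-0.17) overlapped the controls, and so did the neuronal enolase ENO2 (0.06). The widest error of this group was that of ALDOC, the brain aldolase, with 233, 122 and 92 reads against 349, 219, 147 and 136 in the controls and 92 in the mock library (-0.56, SE 0.408, adjusted p = 0.433). Its libraries spread widely in both groups. In the annotation used here RSKR overlaps it on the same strand, as ATP7A overlaps PGK1 and LRRC23 overlaps ENO2. That annotation is later than the one the reads were counted on, so the effect of these overlaps on the counts is uncertain.

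**Figure D3:**
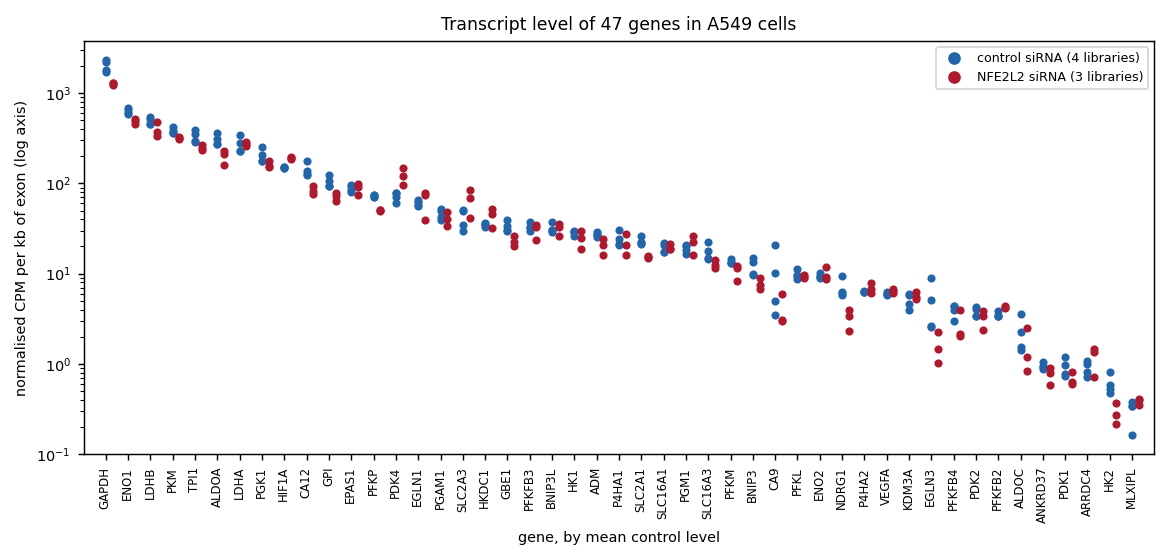
Level of each of the 47 members in normalised CPM per kilobase of exon on a log axis, ordered by the mean of the 4 control libraries, with the 3 NFE2L2 siRNA libraries beside them. GAPDH led at 2029 CPM per kilobase and MLXIPL was lowest at 0.305, and 7 of the 8 highest genes had negative fold changes, the exception being LDHA.

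The PFKFB enzymes set fructose 2,6-bisphosphate, the strongest activator of phosphofructokinase. None of the 3 passed the threshold with edgeR, DESeq2 or limma-voom. At an unadjusted p under 0.05, 1 was higher, where 13.3% of all genes were. PFKFB3, the most abundant, gave 5099, 7971 and 9072 reads against 8435, 7516, 7201 and 6551 in the controls and 7706 in the mock library, so that NFE2L2 duplex 1 was lowest and the groups overlapped (-0.11, SE 0.143, adjusted p = 0.675). PFKFB2 was above all controls at 1601 to 1844 against 1258 to 1469 reads (0.27, SE 0.0923, adjusted p = 0.102), and the mock library, at 1792, was above them too. PFKFB4 had the widest error, with 869, 486 and 561 reads against 685, 892, 989 and 965 in the controls and 444 in the mock library. NFE2L2 duplexes 2 and 3 and the mock library were low and duplex 1 was within the controls (-0.53, SE 0.238, adjusted p = 0.201), and UCN2 overlaps this gene on the same strand.

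Of the 7 genes that set the fate of pyruvate and lactate, none passed the threshold with edgeR or limma-voom. At an unadjusted p under 0.05, 3 were lower and 1 higher, where 11.7% and 13.3% of all genes were. DESeq2, which called 7.7% of genes, called 1, PDK4, as increased. PDK4 encodes a kinase that shuts off pyruvate dehydrogenase and so holds pyruvate back from the mitochondria. It gave 19446, 17153 and 28691 reads under NFE2L2 siRNA, 13296, 10293, 13090 and 11616 in the controls and 15459 in the mock library. Each NFE2L2 duplex was above every control and above the mock library, which itself exceeded the controls. The log2 fold change was 0.75 (SE 0.149, adjusted p = 0.0150, edgeR), or 68.5% higher, and the value was 0.79 against control duplex 1 and 0.71 against control duplex 2. When single libraries were left out, the value ran from 0.58 without NFE2L2 duplex 3 to 0.88 without NFE2L2 duplex 2. It passed the threshold only in the latter case (adjusted p = 0.00336), with adjusted p-values of 0.0273 to 0.0547 in the other 6. The related kinases PDK1 (-0.43) and PDK2 (-0.22) overlapped the controls, and PDK1 had the widest error of the group, with 433, 349 and 396 reads against 662, 533, 425 and 393 in the controls and 367 in the mock library (SE 0.190, adjusted p = 0.193).

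LDHB, which favours lactate to pyruvate, was the most abundant of the group per length and gave 51706, 39017 and 47412 reads against 60323, 58235, 49768 and 49723 in the controls and 56871 in the mock library (-0.32, SE 0.137, adjusted p = 0.182). In normalised CPM NFE2L2 duplex 1 lay within the controls and duplex 2 was the lowest. LDHA, which favours pyruvate to lactate and is a classical HIF target, was at 0.02 (SE 0.148, adjusted p = 0.946). Its fold change was -0.20 against control duplex 1 and 0.27 against control duplex 2, and control duplex 2 differed from control duplex 1 by -0.46 (SE 0.0959, adjusted p = 0.0158). Of the lactate transporters, SLC16A3 (MCT4, the exporter) was narrowly below all controls (-0.44, SE 0.157, adjusted p = 0.113). Its highest NFE2L2 siRNA library was at 132.4 CPM, its lowest control at 133.0 CPM and the mock library at 121.9 CPM. Against control duplex 2 alone it was at -0.20, and control duplex 2 differed from control duplex 1 by -0.45 (SE 0.0922, adjusted p = 0.0135, edgeR). SLC16A1 (MCT1) was at 0.01 (SE 0.112, adjusted p = 0.981).

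Shares within isozyme groups do not depend on the scaling between libraries. Of 19 shares computed, 8 reached the smallest p that 35 divisions allow, 0.0286, and none had an adjusted p under 0.05, since the smallest was 0.0679. HK2 took 0.425 ± 0.148% (n = 3) of hexokinase counts per length under NFE2L2 siRNA and 0.934 ± 0.243% (n = 4) in the controls. PFKL took 13.2 ± 0.404% of phosphofructokinase against 10.1 ± 0.864%, and SLC16A1 took 60.4 ± 0.875% of the lactate transporters against 53.0 ± 2.35%. PDK4 took 96.8 ± 1.08% of the 3 kinases against 93.9 ± 1.10%. In each of these the libraries of one group lay wholly on one side of the other, and the mock library, at 0.727%, 10.95%, 59.96% and 95.7%, lay within the control range for HK2 and PFKL and among the NFE2L2 siRNA libraries for SLC16A1 and PDK4. The LDHA share was 41.3 ± 3.37% against 35.1 ± 2.66%, with overlap (p = 0.0857 by the exact permutation test).

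**Figure D4:**
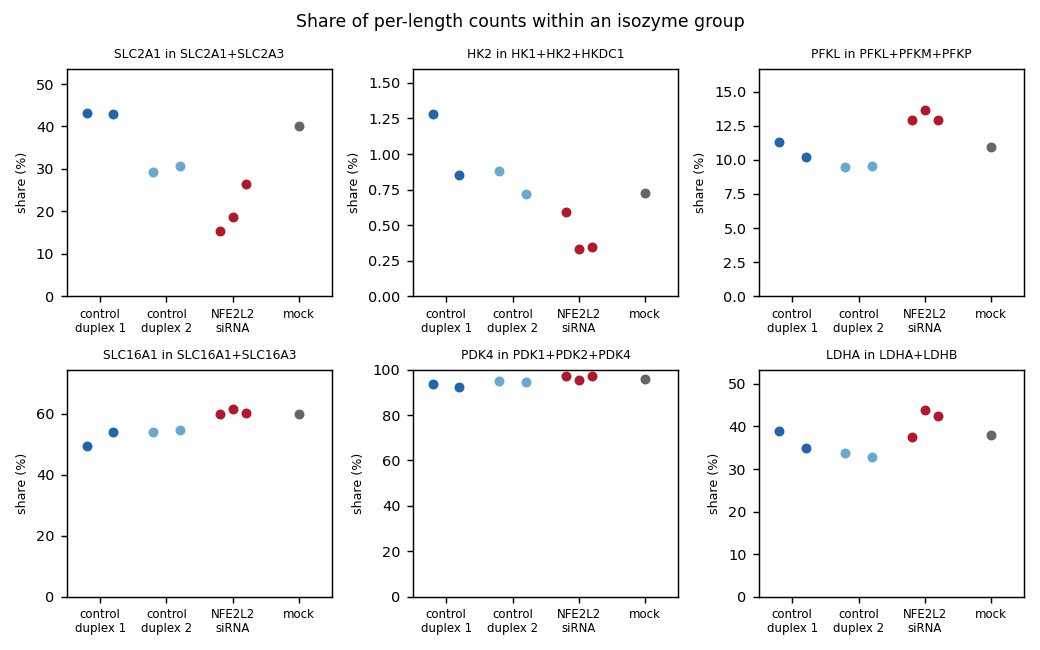
Share in percent of the per-length counts of an isozyme group taken by SLC2A1, HK2, PFKL, SLC16A1, PDK4 and LDHA, one point a library, with the axes from 0. The NFE2L2 siRNA libraries lie outside the control range for all but LDHA, and the 2 control duplexes lie apart from each other for all but HK2.

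Of the genes of glucose sensing, MLXIPL and ARRDC4 were scarce in these cells. MLXIPL gave 69, 78 and 71 reads under NFE2L2 siRNA, 67, 61, 61 and 28 in the controls and 60 in the mock library, at 0.305 CPM per kilobase the lowest level of any member. One control library was low and the rest of the groups overlapped (0.34, SE 0.264, adjusted p = 0.465). ARRDC4, an arrestin that like TXNIP limits glucose uptake, gave 105, 215 and 250 reads against 122, 108, 149 and 158 in the controls and 146 in the mock library. NFE2L2 duplexes 2 and 3 were high and duplex 1 was level with the low controls (0.39, SE 0.244, adjusted p = 0.358). Neither passed the threshold with edgeR, DESeq2 or limma-voom, and neither had an unadjusted p under 0.05. MLXIP, which encodes MondoA and stands among the further pathway genes, is named after its values were seen. It gave 1623, 2221 and 2683 reads against 1325, 1385, 1630 and 1296 in the controls and 1340 in the mock library. Every NFE2L2 duplex was above every control in normalised CPM, and the log2 fold change of 0.53 (SE 0.130, adjusted p = 0.0367, edgeR) did not pass the threshold.

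HIF1A, the alpha subunit that drives most glycolytic HIF targets, gave 35455, 39292 and 40669 reads under NFE2L2 siRNA, 29426, 28302, 28646 and 27335 in the controls and 30984 in the mock library. All 3 NFE2L2 duplexes were above all controls, and the spread within each group was small, 1.05-fold and 1.04-fold from lowest to highest. HIF1A was at 982 ± 23.2 CPM (n = 3) against 771 ± 14.96 CPM (n = 4), a log2 fold change of 0.35 (SE 0.0772, adjusted p = 0.0239, edgeR). It did not pass the threshold of 0.01, while DESeq2 gave an adjusted p of 0.00018. The control duplexes differed by -0.01 (SE 0.0669, adjusted p = 0.921). EPAS1, which encodes HIF-2 alpha, was at 0.00 (SE 0.115, adjusted p = 0.986), with overlap.

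The prolyl hydroxylases that mark HIF alpha subunits were apart. EGLN1, the main one in normal oxygen, gave 14947, 15865 and 8927 reads against 11634, 11144, 13187 and 12126 in the controls and 16185 in the mock library, with NFE2L2 duplex 3 below and duplexes 1 and 2 above every control (0.08, SE 0.205, adjusted p = 0.855). EGLN3, itself a strong HIF target (minus strand of chromosome 14, 34393433 to 34931980 in GRCh37), gave 595, 423 and 321 reads under NFE2L2 siRNA, 2468, 1411, 718 and 677 in the controls and 561 in the mock library. NFE2L2 siRNA and mock libraries were all below the controls, and control duplex 1 was far above control duplex 2. The fold change between groups, -1.61 on the log2 scale (SE 0.455, adjusted p = 0.0588), came with a difference between the control duplexes of nearly its size, -1.44 (SE 0.200, adjusted p = 0.00201). Against control duplex 1 alone it was -2.17 (adjusted p = 0.0262) and against control duplex 2 alone -0.72 (adjusted p = 0.325). SPTSSA overlaps EGLN3 on the same strand in the annotation used here, which is later than the one the reads were counted on. The effect of this overlap on the counts is uncertain. No gene of this group passed the threshold with edgeR or limma-voom. At an unadjusted p under 0.05, 1 was lower and 1 higher, where 11.7% and 13.3% of all genes were. DESeq2, which called 7.7% of genes, called HIF1A as increased.

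Of the 11 HIF targets, 7 had negative and 4 positive fold changes, with a median of -0.32. CA12, ADM, BNIP3 and NDRG1 lay below all controls, as 11.4% of all genes did. None passed the threshold with edgeR or limma-voom, and 5 were lower at an unadjusted p under 0.05, where 11.7% of all genes were. DESeq2, which called 7.7% of genes, called 2, CA12 and NDRG1, as reduced. The median was -0.10 against control duplex 2 alone and -0.37 against control duplex 1 alone, and -0.16 without NFE2L2 duplex 3. Together the 11 genes took 0.123%, 0.106% and 0.120% of gene reads under NFE2L2 duplexes 1, 2 and 3, and 0.188%, 0.148%, 0.155% and 0.149% in the controls. The mock library, at 0.135%, lay between the groups, and 1 repeat of control duplex 1 was the highest.

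CA12, a carbonic anhydrase at the cell surface and the most abundant of these targets per length, gave 23634, 21049 and 24556 reads under NFE2L2 siRNA, 45783, 33404, 35223 and 31188 in the controls and 33605 in the mock library. The groups were apart, with 1 repeat of control duplex 1 highest (-0.74, SE 0.138, adjusted p = 0.0115). NDRG1, a growth arrest gene induced by hypoxia, gave 1676, 1101 and 1746 reads against 4254, 2790, 2679 and 2536 in the controls and 2165 in the mock library. Here too the groups were apart, and the fold change was -1.10 (SE 0.215, adjusted p = 0.0141), or -1.30 and -0.89 against control duplexes 1 and 2 alone. VEGFA, the angiogenic factor, was at 0.10 (SE 0.0810, adjusted p = 0.509) with 3470 to 3728 reads against 3032 to 3327 in the controls, and overlapped the controls in normalised CPM. BNIP3L (0.01), P4HA1 (-0.18), P4HA2 (0.13) and ANKRD37 (-0.32) overlapped the controls, and ADM, a vasodilator peptide, was at -0.42 (SE 0.137, adjusted p = 0.0910).

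The control duplexes were compared with each other to show how far these genes differed with the choice of non-targeting duplex alone. That comparison called 5 of the 47 members, with 3.28% of all 17261 genes tested called at the same threshold. SLC2A3 and KDM3A were higher and EGLN3, CA9 and BNIP3 lower under control duplex 2. It rested on 2 libraries each. Leaving out 1 repeat changed the count of calls widely, for members and for all genes alike. In those fits the lone library of a duplex is assumed to vary like the other pair, so their counts are not given. In 36 of the 47 members the highest control library was the first repeat of control duplex 1. The share over all genes is not given here, so this cannot be called particular to the members. The 2 comparisons share the control libraries and so are not independent of each other.

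CA9, the carbonic anhydrase used as a marker of hypoxia (plus strand of chromosome 9, 35673925 to 35681156 in GRCh37), gave 1231, 611, 296 and 202 reads in the controls, 340, 190 and 204 under NFE2L2 siRNA and 156 in the mock library. Both repeats of control duplex 1 were high, and control duplex 2, the mock library and the NFE2L2 siRNA libraries were in one low range. Control duplex 2 was lower than control duplex 1 by 1.86 (log2 difference -1.86, SE 0.280, adjusted p = 0.00318). The fold change of NFE2L2 siRNA over all controls was -1.31 (SE 0.553, adjusted p = 0.177), and over control duplex 2 alone it was -0.10 (adjusted p = 0.930).

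BNIP3, a mitophagy receptor (minus strand of chromosome 10, 133781188 to 133795471 in GRCh37), gave 1094, 1434 and 1151 reads under NFE2L2 siRNA, 2240, 2011, 1447 and 1449 in the controls and 1704 in the mock library. The NFE2L2 siRNA libraries were lowest in normalised CPM and the mock library lay between the control duplexes (-0.62, SE 0.174, adjusted p = 0.0574). Control duplex 2 was below control duplex 1, with a log2 difference of -0.52 (SE 0.0709, adjusted p = 0.00185). KDM3A, a histone demethylase (plus strand of chromosome 2, 86667770 to 86719839 in GRCh37), gave 2589, 2721 and 3527 reads against 2267, 1957, 2917 and 2794 in the controls and 2386 in the mock library. NFE2L2 siRNA overlapped control duplex 2 (0.15, SE 0.148, adjusted p = 0.573), which was above control duplex 1 by 0.47 on the log2 scale (SE 0.0743, adjusted p = 0.00430).

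**Figure D5:**
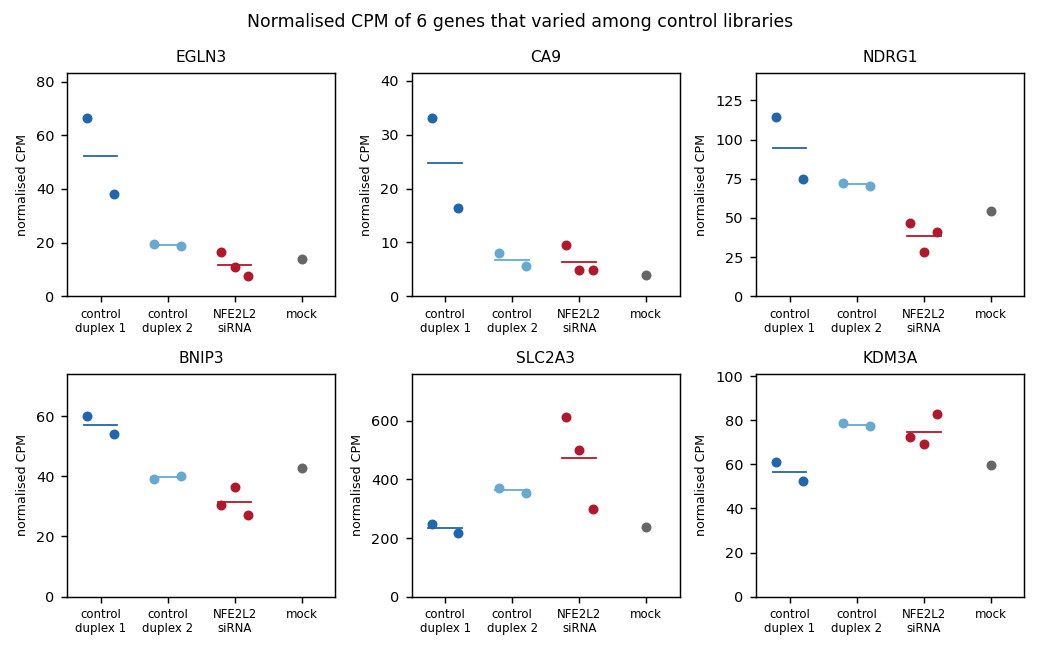
Normalised CPM of EGLN3, CA9, NDRG1, BNIP3, SLC2A3 and KDM3A in each library, one point a library and a line at the mean of each group with more than 1 library. For EGLN3, CA9, NDRG1 and BNIP3 control duplex 1 stands above every other library, and for SLC2A3 and KDM3A control duplex 2 stands above control duplex 1.

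The mock library, a single transfection without siRNA, lay within the range of the 4 controls for 22 of the 47 members, below it for 21 and above it for 4 (HK1, PFKFB2, PDK4 and EGLN1). Over the 17811 genes tested it lay outside that range for 45.0%, below it for 4002 genes and above it for 4017. Of the HIF targets it was below the controls for 8 of 11, among them CA9, NDRG1 and VEGFA, and of the glycolytic enzymes for 6 of 16. For PFKP, whose controls hardly varied, the mock library, at 480 CPM, lay between the highest NFE2L2 siRNA library, at 397 CPM, and the lowest control.

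Of the glycogen genes, GBE1, the branching enzyme, gave 4349, 4090 and 3970 reads under NFE2L2 siRNA, 6884, 5893, 5197 and 4966 in the controls and 4772 in the mock library. The NFE2L2 siRNA libraries were below the controls, and in normalised CPM the mock library lay among them (-0.55, SE 0.132, adjusted p = 0.0344). PGM1, which links glucose 1-phosphate and glucose 6-phosphate, gave 3768, 2574 and 3848 reads against 2803, 2526, 3032 and 3023 in the controls and 3058 in the mock library, with overlap (0.17, SE 0.152, adjusted p = 0.523). Neither passed the threshold with edgeR or limma-voom, and DESeq2, which called 7.7% of genes, called GBE1 as reduced. At an unadjusted p under 0.05, 1 of the 2 was lower, where 11.7% of all genes were.

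A further 143 genes of the same pathways were listed, of which 123 were tested. Past the threshold 2 fell and 3 rose, where 1.36% and 1.39% of all genes did, so the counts were low in both. Their median log2 fold change was -0.04. TXN, the thioredoxin that TXNIP binds and also a known NRF2 target, gave 8166, 8353 and 7941 reads against 21875 to 25926 in the controls (-1.63, SE 0.105, adjusted p = 2.21e-05). GCKR, the regulator of glucokinase, gave 0, 2 and 1 reads against 28 to 34 in the controls and 22 in the mock library (adjusted p = 0.000293, edgeR). These were too few under NFE2L2 siRNA for a useful fold change. GCKR met the limit of 10 reads only through the control libraries, so its p-value is no support for a fall. CITED4, which competes with HIF for a coactivator, rose by 1.09 (SE 0.130, adjusted p = 0.00118) with 2568 to 2896 reads against 930 to 1318. PPP1R3B, a glycogen targeting subunit of protein phosphatase, rose by 0.76 (SE 0.109, adjusted p = 0.00313), and PGM2L1, a glucose 1,6-bisphosphate synthase, by 0.72 (SE 0.130, adjusted p = 0.00987). Of the 37 other HIF targets tested, edgeR and limma-voom called none, and DESeq2, which called 7.7% of genes, called 3 as reduced. At an unadjusted p under 0.05, 7 were lower and 5 higher, where 11.7% and 13.3% of all genes were.

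Promoters were read for the letters of the hypoxia response core, ACGTG or GCGTG on either strand, since these genes are known for their HIF sites. RefSeq promoters, from 250 bases before to 50 after each start in GRCh38.p14, were found for 42 of the 48 members, with 75 starts in all. SLC2A3, PFKFB2, SLC16A1, VEGFA, BNIP3L and NDRG1 had no entry. Of these member promoters 49 (65.3%) held the core, against 48.4% of all 35116 promoters, and among promoters of at least 60% G and C 40 of 54 did, against 64.9%. The promoters of SLC2A1, which fell under NFE2L2 siRNA, and of CA9 and BNIP3, which differed between the control duplexes, are shown with each match in capitals, written in the direction of the gene. SLC2A1 lies at chr1:42958819-42959118 (minus strand), CA9 at chr9:35673678-35673977 (plus strand) and BNIP3 at chr10:131981874-131982173 (minus strand).
SLC2A1: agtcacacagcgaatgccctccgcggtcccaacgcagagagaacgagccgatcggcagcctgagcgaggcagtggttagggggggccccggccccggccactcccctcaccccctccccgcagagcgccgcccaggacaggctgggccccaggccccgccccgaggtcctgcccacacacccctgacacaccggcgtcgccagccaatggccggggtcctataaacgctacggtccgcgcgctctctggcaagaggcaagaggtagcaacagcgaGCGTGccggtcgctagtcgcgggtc
CA9: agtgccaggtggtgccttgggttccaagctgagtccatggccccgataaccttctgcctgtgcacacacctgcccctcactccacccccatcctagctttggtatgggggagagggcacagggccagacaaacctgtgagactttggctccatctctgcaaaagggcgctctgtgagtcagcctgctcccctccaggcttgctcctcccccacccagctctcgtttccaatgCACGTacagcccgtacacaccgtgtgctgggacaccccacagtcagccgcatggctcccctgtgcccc
BNIP3: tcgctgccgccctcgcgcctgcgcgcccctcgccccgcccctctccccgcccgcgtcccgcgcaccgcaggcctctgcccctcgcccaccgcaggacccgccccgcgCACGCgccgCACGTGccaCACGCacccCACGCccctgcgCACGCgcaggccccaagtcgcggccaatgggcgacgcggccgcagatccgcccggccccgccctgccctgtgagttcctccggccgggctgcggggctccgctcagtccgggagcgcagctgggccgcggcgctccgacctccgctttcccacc

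SLC2A1 had 1 match, beginning at base 26 after the start. CA9 had 1, on the opposite strand at base -18, so that it reads CACGT as printed. BNIP3 had 6 between -143 and -104, of which 2 overlap in the palindrome CACGTG. EGLN3 had none in its promoter, and PFKP had a match in 2 of its 4. The E-box CACGTG was in 10 of the 75 member promoters (13.3%, against 7.26% of all), and every E-box also counts as a hypoxia core because it holds ACGTG. The carbohydrate response element, read as CACGNG and CNCGNG with 5 bases between them, was in 2 (2.67%, against 0.501%), those of TXNIP and P4HA1. The antioxidant core TGANNNNGC was in 29 (38.7%, against 41.8%). A match of letters shows neither a bound site nor its use in these cells.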

How the data were processed

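RNA-seq counts of 8 libraries were used, from A549 cells given NFE2L2 siRNA (3), control siRNA (4) or no siRNA (1 mock library). The deposited values are raw counts of reads per gene: per the study's methods and the submitters' processing notes, the authors aligned stranded total RNA reads with HISAT 0.1.6 to hg19 and counted them with HTSeq 0.6.0 in intersection-strict mode by strand on GENCODE v19 models, so reads shared by gene copies or overlapping genes were left out. Between 60.3% and 65.6% of entries fell on genes, and the unassigned rows were left out of library sizes and tests. Symbols, positions, exon lengths and overlaps of genes came from GENCODE v44 lifted to GRCh37 and matched 55538 of 60291 rows.

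A gene was tested if any of the 7 libraries compared held 10 or more reads for it (17811 genes), with edgeR 4.0.16 (R 4.3.3; TMM, quasi-likelihood F test, two-sided, Benjamini-Hochberg over all tested genes, threshold 0.01). Standard errors are the log2 fold change divided by the square root of F. Levels are CPM with TMM factors over 8 libraries, divided by kilobases of exon where genes are compared. Isozyme shares were tested by exact permutation. The fit was tested on simulated data. Alternatives were DESeq2 1.42.0, limma-voom 3.58.1, other scalings, filters and control sets, and each library left out. Tables and figures were made with Python 3.11.15 and matplotlib 3.10.9. The members, the gene lists and the tests were chosen with earlier results of these data known. Members past the threshold in either comparison, and the most abundant and the widest in error of each role, are given in full. No columns held the authors' own comparisons.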

Additional observations from a re-analysis of the deposited data

Results flagged for a closer look

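Each of the 47 members was examined for a control library far from the other 3, and 3 such gaps were found where chance would give about 2.35 (1 group in 20). The gap is given as a share of the whole range of the 4 control libraries, and exceeded Dixon's 95% critical value for 4 samples. NDRG1, the growth arrest gene induced by hypoxia, was at 114 CPM in the first repeat of control duplex 1 and between 70.3 and 75.1 CPM in the others (0.891). PFKFB2 was at 39.7 CPM in the first repeat of control duplex 2 and between 34.5 and 34.9 CPM in the others (0.919). MLXIPL was at 0.776 CPM, 28 reads, in the second repeat of control duplex 2 and between 1.64 and 1.80 CPM in the others (0.845).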

How the results depend on the processing

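Across the 19 alternatives for each member, no called member changed direction. The count of all genes called was 491 at first. It was 1319 with DESeq2, 518 with library size alone and 1019 with a filter of 1 read. It was 772 with the mock library added to the controls and 1456 at an adjusted p under 0.05. Against control duplex 1 or 2 alone it was 120 and 59, and with the repeats of each control duplex summed 78. The members called, 2 at first and both reduced, were 12 with DESeq2 (10 reduced, 2 increased), 4 with library size alone (4 reduced), 11 with a filter of 1 read (10 reduced, 1 increased), 6 with the mock library added (4 reduced, 2 increased), 12 at an adjusted p under 0.05 (10 reduced, 2 increased), and 0 (0 reduced) against either control duplex alone or with the repeats summed. The cause of the change with the filter was not tested, and single control duplexes and summed repeats leave fewer libraries. Against control duplex 2 alone the median log2 fold change was -0.10 for the HIF targets and -0.10 for all members. Leaving out 1 library at a time gave 163 to 915 genes, 0 to 3 members, 0 to 2 reduced and 0 to 1 increased, and a median of the HIF targets of -0.38 to -0.16. Between the control duplexes, 5 members and 566 genes at first, DESeq2 called 17 members, the robust fit 8, the filter of 1 read 0 members and 4 genes, an adjusted p under 0.05 gave 19 members and 1736 genes, and leaving out 1 library gave 0 to 27 members and 0 to 2056 genes. No paired analysis was possible because a number stands for a duplex in the NFE2L2 siRNA group and for a repeat of a duplex in the control group, so equal numbers join no samples.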
